A study of Mus musculus with 10 samples.

Results

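The genes described here encode machinery of oxidative phosphorylation in the mouse mammary gland: subunits of complexes I to V, their close isoforms and the assembly factors that share their symbols. They were taken from a table of 35275 genes by the start of the gene symbol (Nduf, Sdh followed by a to d, Uqcr, Cox4 to Cox8, Atp5, mt-Nd, mt-Co, mt-Cytb and mt-Atp). The symbols matched 121 rows, 11 pseudogenes were left out, and 110 genes remained. Of these, 97 lie in the nuclear genome, spread over 19 chromosomes, and 13 in the mitochondrial genome. The nuclear genes comprise 75 structural subunits, 8 isoforms known mainly from particular tissues, and 14 assembly factors or relatives of subunits. The rule reads symbols and no measured value, but it was written with earlier results of these data known. It leaves out subunits under other symbols, such as cytochrome c1 of complex III.

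RNA was sequenced from whole mammary glands of BALB/c mice, an inbred strain with no transgene or deletion named in the labels, on lactation day 3. Glands of the 4th pair, left and right in alternation, were injected through the teat with 50 µL of E. coli lipopolysaccharide (LPS, the endotoxin of Gram-negative bacteria) at 0.4 mg/mL or with sterile phosphate-buffered saline (PBS), and were taken 12 h later. There were 5 LPS and 5 PBS libraries. The labels give n = 9 and do not say which mouse each library came from, so a p-value here reflects only how far libraries of a group differed, and no uninjected gland was analysed here. Where both glands of a mouse were used, the control gland lay in an animal that also received endotoxin, and the labels do not tie any LPS library to a PBS library of the same mouse. The label of the tissue was met: the 8 milk protein genes made up 32.2 to 49.9% of summed FPKM.

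Complexes I to IV form the respiratory chain of the inner mitochondrial membrane. Complex I (NADH dehydrogenase) and complex II (succinate dehydrogenase) feed electrons to ubiquinone, complex III (cytochrome bc1) passes them to cytochrome c, and complex IV (cytochrome c oxidase) hands them to oxygen. Complexes I, III and IV pump protons, and complex V (ATP synthase) uses the gradient to make ATP. All except complex II combine subunits made from nuclear genes with core subunits made inside the organelle from mitochondrial DNA. Milk secretion draws on this ATP, and macrophages and some other immune cells exposed to endotoxin are known to shift toward glycolysis.

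Depth was 15734303 to 18869545 counted reads per library. The unit is FPKM, reads scaled by gene length and by the counted reads of the library, so that levels of different genes can be set side by side. A gene of 1 kb with 1 read had 0.0530 to 0.0636 FPKM. Over the whole table, 300 of 11414 tested genes rose (2.63%) and 69 fell (0.605%) in LPS glands at an adjusted p below 0.05 (limma with group as the only term, Benjamini-Hochberg over all tested genes). The split depended on the scaling: 128 rose (1.12%) and 348 fell (3.05%) with FPKM rescaled to the sum outside the milk protein genes, and 233 rose (2.04%) and 145 fell (1.27%) after quantile normalization. Summed FPKM of 10 neutrophil markers was 7469 to 14267 in LPS and 733 to 1917 in PBS glands. Of the 8 tested markers, 5 were called higher, and none of the 10 was at 0 in all libraries. The means of the 8 had a median of 5.17 and a maximum of 4130 FPKM, so the sum rests on the most abundant markers. Milk protein genes took 36.2 ± 4.95% of summed FPKM in LPS and 45.0 ± 5.22% in PBS glands (SD, n = 5). In whole glands, fewer cells of a type and less RNA per cell cannot be told apart, and FPKM is a share of the library, so these shifts bear on every value below; their part in the results was not tested. LPS replicate 1 stood apart by high values of short genes, and LPS replicate 3 and PBS replicate 2 by high values of mitochondrial genes, as described below.

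The comparison of LPS with PBS glands asks whether transcripts of the respiratory machinery were at other levels 12 h after endotoxin. Of the 110 genes, 103 had at least 1 FPKM in at least 5 libraries and were tested. Only 1 of them rose, against 2.63% of all tested genes, and 2 fell, against 0.605%. With FPKM rescaled outside the milk protein genes, 0 rose and 2 fell, so the 2 falls lay above the share of all genes in one scaling and below it in the other. The rise was in Sdhaf2, an assembly factor of complex II, and the falls were in Cox7a1 and Cox4i2, sparsely expressed isoforms of complex IV subunits. Both were below 1 FPKM in all LPS libraries and entered the test through the PBS group alone, so nothing is read from their count against the share of all genes. Without the filter on low values, Cox7a1 was still called (limma adjusted p = 0.0363) and Cox4i2 was not (0.0626). None of the 74 tested structural subunits of the nuclear genome and none of the 12 tested mitochondrial genes passed the threshold in this limma fit. At an unadjusted p below 0.05, 4 of the 103 were higher (12.4% of all tested genes) and 2 were lower (4.07%), among them 1 structural subunit, Ndufa9. edgeR, run on whole reads recovered from the FPKM values, called 1 gene higher (2.67% of all tested genes) and 2 lower (1.16%). DESeq2 called 1 of each (4.78% and 2.62%). Both were run only on the genes that passed the same filter. Cox7a1 and Cox4i2 thus entered them through the PBS group too, and these counts are no separate check of the falls. With limma, leaving out LPS replicate 1 gave 2 members called higher and 2 lower, leaving out LPS replicate 3 gave 0 and 1, and leaving out PBS replicate 2 gave 1 and 1.

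The spread between glands was small enough to set bounds on the scale of log2(FPKM + 1). On that scale the 95% interval of the change lay within 2-fold in either direction for all 103 tested genes. It lay within 1.5-fold for 90 of them. Among all 11414 tested genes, 10846 and 9041 met these bounds. The bounds are those of the reported fit on FPKM as deposited. They were not counted with FPKM rescaled to the sum outside the milk protein genes, where the log2 change of Cox7a1 was -0.82. The log2(FPKM + 1) scale understates changes of genes near 1 FPKM. In FPKM itself, the ratios of means of Cox7a1 and Cox4i2 were 0.380 and 0.455, beyond 2-fold. The median log2 change, LPS minus PBS, was 0.03 for nuclear structural subunits, 0.05 for mitochondrial genes, 0.07 for assembly factors and 0.05 for all tested genes. Of the 74 structural subunits, 50 had a log2 change above 0 and 24 below, beside 7003 and 4411 of all tested genes. With FPKM rescaled to the sum outside the milk protein genes, the medians were -0.18 for nuclear structural subunits, -0.16 for mitochondrial genes and -0.13 for all tested genes. The sign of the medians thus depended on the scaling, and both lay near the median of all genes under either scaling.

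**Figure D1:**
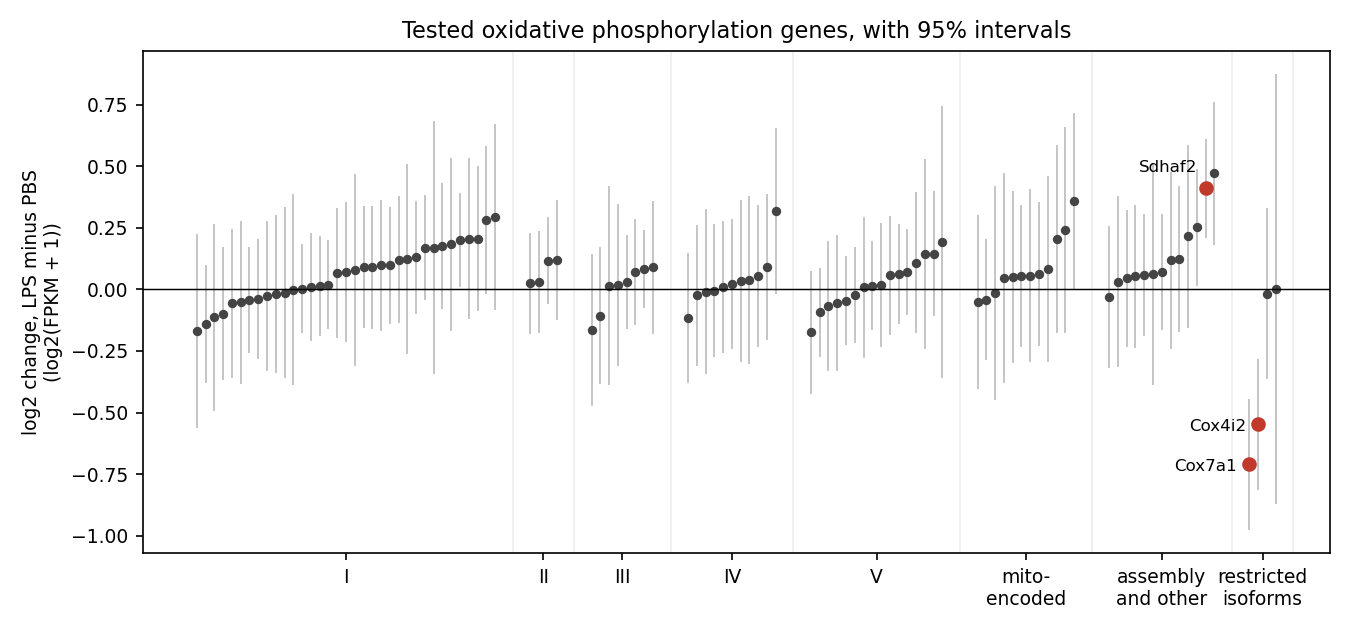
Log2 change between LPS and PBS glands on the log2(FPKM + 1) scale (vertical axis) of the 103 tested genes, ordered by change within each group (horizontal axis: nuclear structural subunits of complexes I to V, mitochondrially encoded genes, assembly factors and relatives, restricted isoforms). Points are limma estimates, bars their 95% intervals, and large red points the 3 genes with an adjusted p below 0.05: Sdhaf2 above 0, and Cox4i2 and Cox7a1 below.

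Complex I has the most subunits, with 36 structural genes in the nucleus. Their summed level was 1380.0 ± 241 FPKM in LPS and 1316 ± 167 FPKM in PBS glands, 0 of the 35 tested were called, and their median log2 change was 0.07. Here and for the sets below, counts of called genes stand beside 3.23% of all tested genes called in either direction. Nothing is read from a count of 0 in sets this small. The accessory subunits Ndufb9 and Ndufa1 were the most abundant, with means over all libraries of 140.4 and 118 FPKM. Of the 7 core subunits, among them those that hold the flavin and the iron-sulfur clusters, Ndufs1 had the lowest mean, 17.8 FPKM, and 0 of 7 were called. Ndufb9 had 191, 128, 137, 129 and 113 FPKM in LPS replicates 1 to 5 and 144, 173, 126, 150 and 112 FPKM in PBS replicates 1 to 5. The groups overlapped, and LPS replicate 1 was the highest of the 10 libraries. Ndufa1, a small X-linked subunit of the membrane arm, had 218, 135, 91.7, 112 and 81.0 FPKM in LPS and 109, 144, 92.0, 115 and 81.6 FPKM in PBS glands. Its SD was 42.8% of its mean in LPS glands, the widest of the structural subunits, and again LPS replicate 1 was highest. Ndufb2 was the structural subunit that did not pass the filter, at a mean of 0.489 FPKM over a counted length of 4371 bases.

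Complex II consists of 4 nuclear subunits and is shared with the citric acid cycle. All 4 were tested, 0 were called, and the summed level was 173 ± 16.2 FPKM in LPS and 164 ± 8.53 FPKM in PBS glands. The most abundant were Sdhd, a membrane anchor, and Sdhb, which carries the iron-sulfur clusters. Sdhd had 67.4, 55.3, 65.5, 53.4 and 45.5 FPKM in LPS and 49.2, 57.9, 51.9, 56.0 and 47.0 FPKM in PBS glands. Sdhb had 54.7, 47.8, 47.1, 45.5 and 37.9 FPKM in LPS and 45.0, 46.2, 42.5, 48.4 and 44.8 FPKM in PBS glands. The LPS values of both genes spanned the PBS values, and the 95% intervals of the log2 change were -0.12 to 0.36 for Sdhd and -0.18 to 0.24 for Sdhb.

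The nuclear part of complex III was counted from 8 genes, without cytochrome c1, and 0 of the 8 were called. Their summed level was 557 ± 87.9 FPKM in LPS and 551 ± 53.4 FPKM in PBS glands. Uqcrh, the hinge protein near cytochrome c1, was the most abundant, followed by Uqcrfs1, the Rieske iron-sulfur protein. Uqcrh had 123, 84.4, 85.6, 85.3 and 70.6 FPKM in LPS and 91.7, 101, 75.5, 102 and 70.0 FPKM in PBS glands. Uqcrfs1 had 99.0, 80.7, 83.5, 81.0 and 72.7 FPKM in LPS and 81.2, 85.1, 79.9, 82.2 and 77.7 FPKM in PBS glands. In PBS glands Uqcrfs1 was the steadiest structural subunit, with an SD of 3.4% of its mean, and its log2 change was 0.03 (95% interval -0.16 to 0.22).

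Complex IV had the highest summed level of the nuclear subunits beside complex V. Its 11 widely used subunits summed to 1605 ± 260.3 FPKM in LPS and 1569 ± 208 FPKM in PBS glands, and 0 of 11 were called. Cox6a1 and Cox8a, small subunits of the membrane part, led with means of 311 and 257 FPKM. Cox6a1 had 356, 316, 317, 256 and 290.4 FPKM in LPS and 328, 389, 236, 321 and 299 FPKM in PBS glands. Cox8a had 313, 247, 256, 224 and 199.9 FPKM in LPS and 281, 286, 235, 290.3 and 241 FPKM in PBS glands. Both genes overlapped between groups. Cox5a, a subunit on the matrix side of the complex, had 57.3, 49.5, 36.8, 40.8 and 39.8 FPKM in LPS and 45.1, 48.6, 44.7, 47.7 and 36.9 FPKM in PBS glands. Its means, 44.8 and 44.6 FPKM, differed by far less than the spread, with a log2 change of -0.01 ± 0.12 (SE) and an adjusted p of 0.988 in limma. Ndufa4, first assigned to complex I and now known as a subunit of complex IV, had the largest positive log2 change of the structural subunits. It had 249.9, 217, 251, 173 and 162 FPKM in LPS and 168, 206, 139, 190.3 and 137 FPKM in PBS glands. The groups overlapped, and its log2 change of 0.32 ± 0.16 did not pass (limma adjusted p = 0.337).

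ATP synthase was measured through 16 nuclear structural genes, 0 of which were called. Their summed level was 1542 ± 144 FPKM in LPS and 1504 ± 127 FPKM in PBS glands. Atp5b, the catalytic beta subunit, was the most abundant nuclear gene of all those described, with 328, 359, 312, 335 and 314 FPKM in LPS and 295, 332, 302, 326 and 312 FPKM in PBS glands. The groups overlapped, and its log2 change was 0.07 (95% interval -0.10 to 0.25).

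Subunit c, which forms the rotating ring of ATP synthase, is encoded by 3 nuclear genes that give the same mature protein. Atp5g3 had 206, 198, 167, 166 and 143 FPKM in LPS and 149, 189, 155, 162 and 139.5 FPKM in PBS glands. Atp5g2 had 97.9, 82.1, 73.0, 76.6 and 59.9 FPKM in LPS and 80.6, 89.4, 83.3, 82.3 and 68.9 FPKM in PBS glands. Atp5g1 had 11.4, 11.1, 11.4, 9.73 and 9.10 FPKM in LPS and 11.3, 15.4, 9.71, 11.8 and 12.2 FPKM in PBS glands. None of the 3 was called, with log2 changes of 0.14, -0.07 and -0.17. As a share of their sum, Atp5g3 supplied 65.4 to 68.0% in LPS and 61.8 to 64.3% in PBS glands, ranges that did not overlap. Atp5g2 supplied 29.4 ± 1.25 and 32.2 ± 1.39%, and Atp5g1 supplied 4.02 ± 0.377 and 4.80 ± 0.624%. Ranges overlapped for Atp5g2 (28.2 to 31.0% in LPS, 30.4 to 33.6% in PBS glands) and for Atp5g1 (3.60 to 4.52%, 3.91 to 5.53%). These shares are descriptions with no test, and how often such shares fail to overlap among other genes was not computed. Of the 100-base windows of Atp5g2, 34.7% also occur in another annotated transcript, Gm10175, the highest such share of the structural subunits of the nucleus. The share was 5.94% for Atp5g1, nearly all of it in a processed pseudogene, and 0 for Atp5g3. The levels of Atp5g2 and Atp5g1, and so the shares of all 3, carry that uncertainty. Of the 75 nuclear structural subunits, 30 had some shared windows, Ndufb9 (11.1%) among them, and 0 had more than 50%. Their levels, and so the sums of the complexes, carry part of the same uncertainty.

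The mitochondrial genome supplies 7 subunits of complex I, 1 of complex III, 3 of complex IV and 2 of complex V. Their summed level was 13174 ± 3089 FPKM in LPS and 12416 ± 2499 FPKM in PBS glands, with 0 of the 12 tested genes called. The deposited levels of the 13 genes ranged from 4437 FPKM for mt-Co1, the catalytic subunit of complex IV, to 0.116 FPKM for mt-Atp8, a small subunit of ATP synthase. mt-Co1 had 3342, 4091, 6610, 3732 and 4944 FPKM in LPS and 4348, 5722, 3752, 4185 and 3647 FPKM in PBS glands. mt-Cytb, cytochrome b of complex III, had 2409, 2689, 3741, 2595 and 2972 FPKM in LPS and 2902, 4036, 2648, 2948 and 2441 FPKM in PBS glands. In both genes LPS replicate 3 and PBS replicate 2 were the highest of their groups, and the groups overlapped. Their log2 changes were 0.05 ± 0.20 and -0.05 ± 0.16.

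Among the mitochondrial genes of complex I, mt-Nd1 (log2 change 0.20), mt-Nd5 (0.24) and mt-Nd6 (0.36) had the largest positive estimates, and none passed. mt-Nd1 had 1592, 2045, 2872, 1888 and 2478 FPKM in LPS and 1740.3, 2515, 1647, 1872 and 1599 FPKM in PBS glands. mt-Nd5 had 533, 681, 1097, 689 and 879.9 FPKM in LPS and 564, 910.1, 565, 636 and 567 FPKM in PBS glands. mt-Nd6, a membrane subunit and the only protein encoded on the other strand of the mitochondrial DNA, had 449.6, 613, 737, 567 and 677 FPKM in LPS and 395, 682, 441, 442 and 428 FPKM in PBS glands. For mt-Nd6, 4 of the 5 PBS libraries lay below all LPS libraries and PBS replicate 2 lay among the highest, with a limma adjusted p of 0.304. mt-Nd6 (13552 to 14070, minus strand) overlaps the end of mt-Nd5 (11742 to 13565, plus strand), both in chromosome M of GRCm38 by the GENCODE M21 annotation. The sources used here do not give whether counting used strand, so reads of the other strand of the mitochondrial genome cannot be told apart from those of mt-Nd6. mt-Nd2 and mt-Nd4 averaged 1198 and 788 FPKM, with log2 changes of 0.05 and 0.08.

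Within the mitochondrial genome, 5 of the 12 tested genes stood far below the other tested genes although all are core subunits: mt-Co2 at 51.1, mt-Co3 at 42.7, mt-Atp6 at 41.0, mt-Nd4l at 11.9 and mt-Nd3 at 6.54 FPKM. The same 5 genes have near-identical nuclear copies in the annotation. For each gene, the share of its 100-base windows that also occurs in another annotated transcript was computed: 99.5% for mt-Co2, 99.9% for mt-Co3, 99.5% for mt-Atp6, 98.5% for mt-Nd4l and 97.6% for mt-Nd3. It was 60.8% for mt-Nd4, 30.8% for mt-Co1, 3.19% for mt-Nd2, and 0 for mt-Nd1, mt-Nd5, mt-Nd6 and mt-Cytb. How reads that match a gene and its copy were counted is not given in the sources used here, so the levels of the 5 genes are uncertain and their order against the other mitochondrial genes is not a result. The levels of mt-Nd4 and mt-Co1, and so the sum of the mitochondrial genes, carry part of that uncertainty. The share was also 0 for mt-Atp8, with 0 to 1 reads per library. Only annotated transcripts were searched, so this share does not tell whether mt-Atp8 has an unannotated nuclear copy, and its level is uncertain too. The 204 bases of mt-Atp8 contain 43 that also belong to mt-Atp6.

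**Figure D2:**
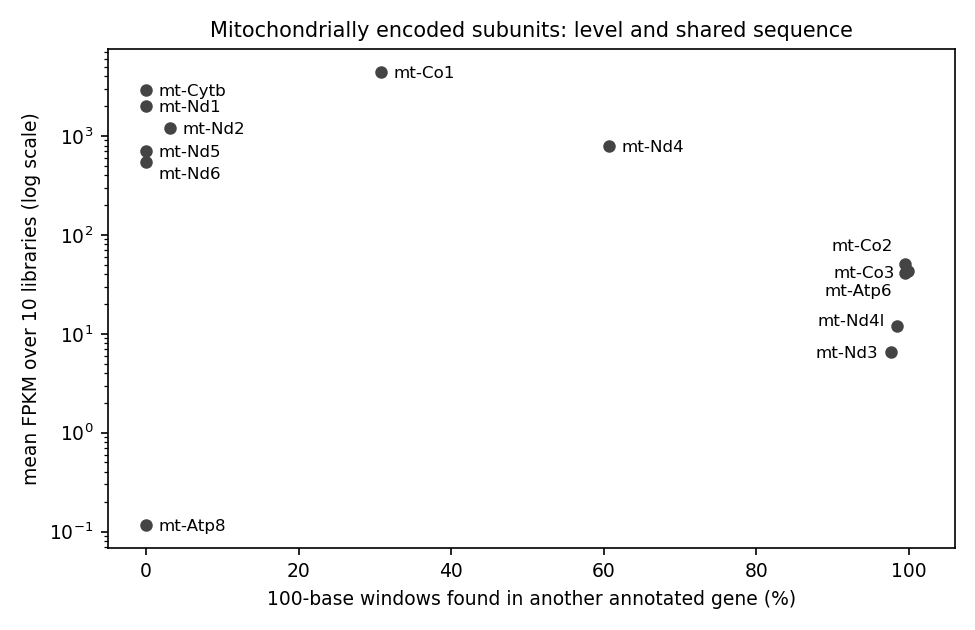
Mean FPKM over 10 libraries (vertical axis, log scale) of the 13 mitochondrially encoded genes against the share of their 100-base windows found in another annotated gene (horizontal axis, percent). Each point is 1 gene; the 5 genes with shares above 97% lie between 6.54 and 51.1 FPKM, those with shares of 60.8% or less lie at 543 FPKM or above, and mt-Atp8, with a share of 0, lies at 0.116 FPKM.

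The copies lie side by side in a block of 4663 bases, chromosome 1, 24611535 to 24616197, minus strand (GRCm38), and are annotated as unprocessed pseudogenes. The copy of mt-Co2, Gm28661, averaged 48.1 FPKM, 94.1% of the level of the gene itself. The copy of mt-Co3, Gm28437, was at 96.6% of its gene, that of mt-Nd4l, Gm10222, at 90.8%, that of mt-Atp6, Gm10925, at 164% and that of mt-Nd3, Gm28438, at 283%. Copies of parts of mt-Co1 (Gm29216) and of mt-Nd4 (Gm28439) were at 1.01% and 2.24% of the levels of their genes. None of the 7 copies was called, the nearest being Gm28438 with a log2 change of 0.41 (limma adjusted p = 0.177). A pair of stretches shows how the genes differ in this respect. Over 345 bases mt-Nd3 and its copy differ at 1 base, T3C, with positions counted from 1 at the start of the gene and the base of the gene given first. Bases 1 to 90 are shown, with the differing base in capitals (GENCODE M21 transcripts).
mt-Nd3: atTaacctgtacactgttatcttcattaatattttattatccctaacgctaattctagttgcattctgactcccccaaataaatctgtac
Gm28438: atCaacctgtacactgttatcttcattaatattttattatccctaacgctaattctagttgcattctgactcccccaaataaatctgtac
By contrast, mt-Cytb and its closest annotated copy on chromosome 4, Gm11410, differ at 82 of 1143 bases, 6 of them within the same bases 1 to 90. Gm11410 was at 0 FPKM in all libraries.
mt-Cytb: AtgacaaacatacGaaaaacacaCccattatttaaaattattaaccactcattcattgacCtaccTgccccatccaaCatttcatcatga
Gm11410: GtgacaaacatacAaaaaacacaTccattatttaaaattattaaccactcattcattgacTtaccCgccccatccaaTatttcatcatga
In the mitochondrial genome mt-Atp8 lies between mt-Co2 and mt-Atp6. The stretch of chromosome 1 between the copies of these neighbours, 24614651 to 24614885, holds no annotated copy of mt-Atp8, and its sequence was not examined. For mt-Atp8, which had no annotated copy, the whole gene is given, with the 43 bases that overlap mt-Atp6 in capitals.
mt-Atp8: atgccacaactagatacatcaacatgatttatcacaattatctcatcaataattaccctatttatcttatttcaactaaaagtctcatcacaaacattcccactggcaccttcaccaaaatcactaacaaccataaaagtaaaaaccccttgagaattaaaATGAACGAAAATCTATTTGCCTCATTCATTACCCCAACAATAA

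The comparison between groups carries the same uncertainty for these 5 genes. mt-Co2 had 43.6, 49.6, 68.9, 47.2 and 49.7 FPKM in LPS and 51.7, 69.1, 40.7, 52.1 and 38.5 FPKM in PBS glands. The log2 changes of the 5 ran from -0.04 for mt-Nd3 to 0.06 for mt-Co3, with limma adjusted p from 0.888 to 0.982. mt-Nd3 was counted from only 31 to 47 reads per library and mt-Nd4l from 38 to 99.

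Among LPS glands, the mitochondrial and nuclear subunits were highest and lowest in different libraries, whereas among PBS glands replicate 2 was highest and replicate 5 lowest for both. The nuclear structural subunits summed to 6363, 5438, 5224, 4872 and 4391 FPKM in LPS and 5040.3, 5845, 4708, 5427 and 4494 FPKM in PBS glands. The mitochondrial genes summed to 10067, 12135, 17972, 11396 and 14299 FPKM in LPS and 11928, 16709, 10880.4, 12112 and 10452 FPKM in PBS glands. LPS replicate 1 had the highest nuclear and the lowest mitochondrial sum of its group, and LPS replicate 5 the lowest nuclear and the second highest mitochondrial sum. The ratio of the mitochondrial to the nuclear sum was 1.58, 2.23, 3.44, 2.34 and 3.26 in LPS and 2.37, 2.86, 2.31, 2.23 and 2.33 in PBS glands. The means, 2.57 ± 0.770 and 2.42 ± 0.251, differed by less than the spread among LPS glands.

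**Figure D3:**
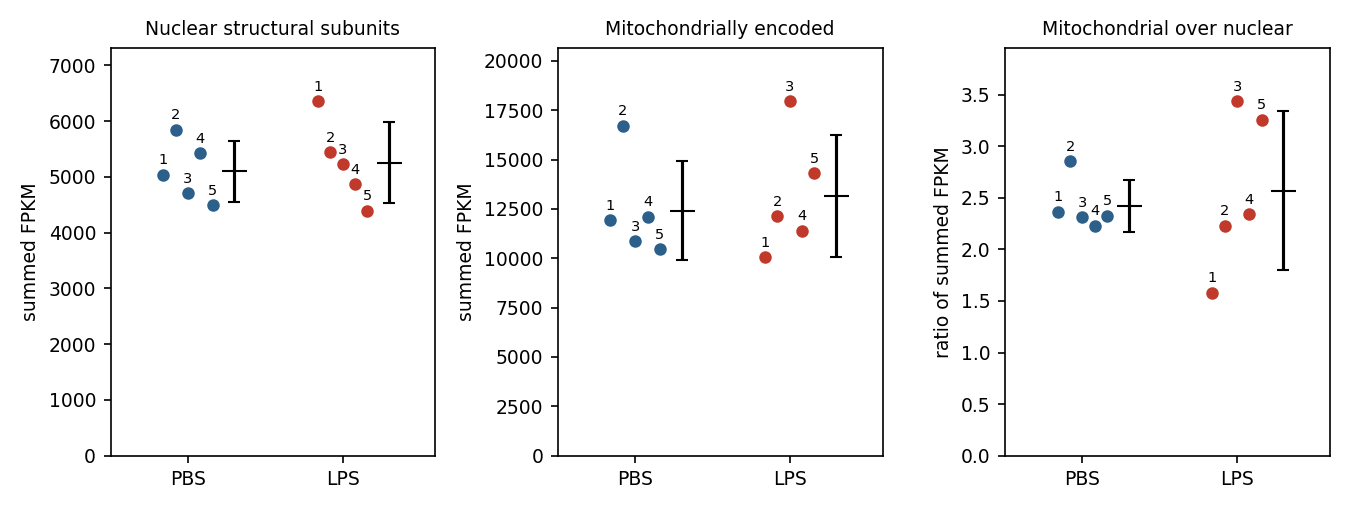
Summed FPKM of the 75 nuclear structural subunits (left) and the 13 mitochondrially encoded genes (middle), and the ratio of these sums (right), in each PBS (blue) and LPS (red) library; numbers are replicates, and bars show mean ± SD (n = 5). The groups overlap in all panels, and the ratio runs from 1.58 to 3.44 among LPS libraries against 2.23 to 2.86 among PBS libraries.

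The libraries at the extremes were few. LPS replicate 1 was the highest of the 10 libraries for 47 of the 74 tested structural subunits, LPS replicate 5 the lowest for 33 and PBS replicate 5 the lowest for 21. Of the 12 tested mitochondrial genes, 7 were highest in LPS replicate 3 and 5 in PBS replicate 2. Structural subunits are short genes, with a median counted length of 959 bases beside 3003 for all tested genes, and LPS replicate 1 differed by length over the whole table. Its median deviation from the mean of all libraries, in log2, was taken in 5 length classes of all tested genes. From the shortest to the longest class it was 0.18, 0.04, -0.03, -0.08 and -0.17. Among the structural subunits it was 0.35 for the 40 shorter than 1000 bases and 0.18 for the other 34. The part of gene length in the subunit values of this library was not tested. Without LPS replicate 1, the median log2 change was -0.03 for nuclear structural subunits and 0.12 for mitochondrial genes, beside 0.06 for all tested genes. Without LPS replicate 3, the median of the mitochondrial genes was -0.03, and without PBS replicate 2 it was 0.16. Summed markers of B and T cells were 71.2 FPKM in PBS replicate 2 and 22.1 FPKM in LPS replicate 3, the highest of their groups. They were also 33.3 FPKM in PBS replicate 4, whose mitochondrial sum lay within the range of the other libraries, and 0.606 to 7.03 FPKM in the other 7 libraries; their part in these sums was not tested.

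Both genes that fell belong to the isoforms of complex IV subunits that are known from particular tissues. Cox7a1 is the heart and skeletal muscle form of subunit 7a and is also abundant in brown fat, and Cox4i2 is a form of subunit 4 known from lung and oxygen-sensing cells. Cox7a1 (ENSMUSG00000074218, chromosome 7, 30184144 to 30186078, plus strand) had 0.728, 0.606, 0.635, 0.516 and 0.810 FPKM in LPS and 2.13, 1.47, 1.95, 1.92 and 1.20 FPKM in PBS glands. All LPS libraries lay below all PBS libraries, as for 1.22% of all tested genes. With every LPS library below 1 FPKM, the gene could pass the filter only if all 5 PBS libraries reached 1 FPKM. The non-overlap was thus fixed by the filter, and nothing is read from it. The log2 change on the log2(FPKM + 1) scale was -0.71 ± 0.12 (SE), with a limma adjusted p of 0.0107, and the ratio of the mean FPKM values was 0.380. The call rests on few reads, 21 over the 5 LPS and 53 over the 5 PBS libraries. On these reads edgeR gave a log2 change of -1.43 (adjusted p = 0.0454), and DESeq2 gave -1.46, which did not pass (adjusted p = 0.0718).

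Cox4i2 (ENSMUSG00000009876, chromosome 2, 152754173 to 152765037, plus strand) had 0.795, 0.677, 0.552, 0.684 and 0.563 FPKM in LPS and 1.43, 1.70, 1.05, 1.13 and 1.88 FPKM in PBS glands. Again all LPS libraries lay below all PBS libraries, which the filter fixed in the same way. Its log2 change was -0.55 ± 0.12 (limma adjusted p = 0.0320), the ratio of means was 0.455, and 42 and 88 reads lay behind the groups. The call was lost when any library other than LPS replicate 1 or PBS replicate 3 was left out, with adjusted p from 0.0537 to 0.0821. Both genes passed the low-value filter only through the PBS group. None of the 100-base windows of either gene occurs in another annotated transcript.

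**Figure D4:**
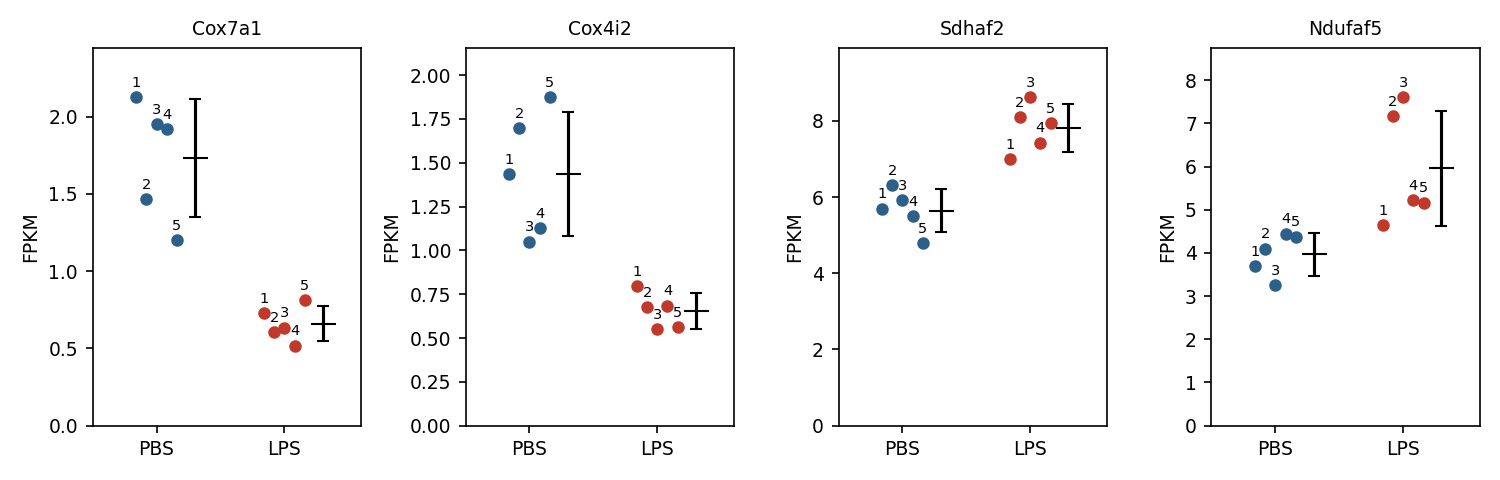
FPKM (vertical axes, each from 0) of Cox7a1, Cox4i2, Sdhaf2 and Ndufaf5 in each PBS (blue) and LPS (red) library; numbers are replicates, and bars show mean ± SD (n = 5). In all panels the groups do not overlap, which for Cox7a1 and Cox4i2 was fixed by the filter on low values. Cox7a1 and Cox4i2 are lower and Sdhaf2 higher in LPS glands, and Ndufaf5 did not pass the threshold (limma adjusted p = 0.0808).

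The partners of these isoforms that are used in most tissues stayed within the spread. Cox7a2 had 63.7, 53.4, 59.9, 44.0 and 37.3 FPKM in LPS and 51.6, 62.6, 42.7, 52.7 and 40.3 FPKM in PBS glands. Cox4i1 had 310.1, 240.3, 224, 223 and 212 FPKM in LPS and 248, 275, 206, 250.2 and 209 FPKM in PBS glands. The rare form thus made up little of either pair: Cox7a1 was 1.34 ± 0.468% of Cox7a2 in LPS and 3.53 ± 0.888% in PBS glands. Cox4i2 was 0.271 ± 0.0235% of Cox4i1 in LPS and 0.611 ± 0.173% in PBS glands.

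The other restricted isoforms gave no call. Cox8b, like Cox7a1 a form of muscle and brown fat, had 3.95, 5.18, 2.24, 1.21 and 3.91 FPKM in LPS and 5.35, 3.93, 0.327, 5.27 and 3.11 FPKM in PBS glands, with a log2 change of 0.00 ± 0.40. Its 95% interval, -0.87 to 0.88, was the widest of all tested members. Ndufa4l2, a relative of Ndufa4 known to be induced by low oxygen, averaged 1.49 ± 0.379 FPKM in LPS and 1.53 ± 0.509 FPKM in PBS glands (log2 change -0.02). Cox6a2 and Cox6b2, forms of muscle and testis, did not pass the filter, with 0 to 3 and 0 to 5 reads per library. Cox7b2 and Cox8c were at 0 in all libraries. Cox6b1, Cox7b and Cox6a1, the common forms, were at 164, 74.4 and 307 FPKM in LPS and 160.5, 72.6 and 314 FPKM in PBS glands.

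Markers of skeletal muscle and brown fat were low in both groups, those of adipocytes were not, and no markers of heart, lung, oxygen-sensing cells or testis were examined. Summed FPKM of 13 skeletal muscle markers was 2.67 to 7.28 in LPS and 2.76 to 5.72 in PBS glands, with Tnnc2 at 0 in all libraries and 0 of 3 tested markers called. Summed FPKM of 5 brown fat markers was 1.84 to 6.65 in LPS and 2.34 to 7.54 in PBS glands. The list includes Cox7a1 and Cox8b, its 2 tested genes, of which Cox7a1 was called. In every library these 2 made up most of the sum. The sum thus mostly restates these members, and nothing about brown fat is read from it. Summed FPKM of 8 adipocyte markers was 277 to 655 in LPS and 288 to 739 in PBS glands, with 0 of 8 called. The sums of skeletal muscle and adipocyte markers overlapped between groups, whereas the neutrophil sum did not. The part of any of these cell types in the falls of Cox7a1 and Cox4i2 was not tested.

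**Figure D5:**
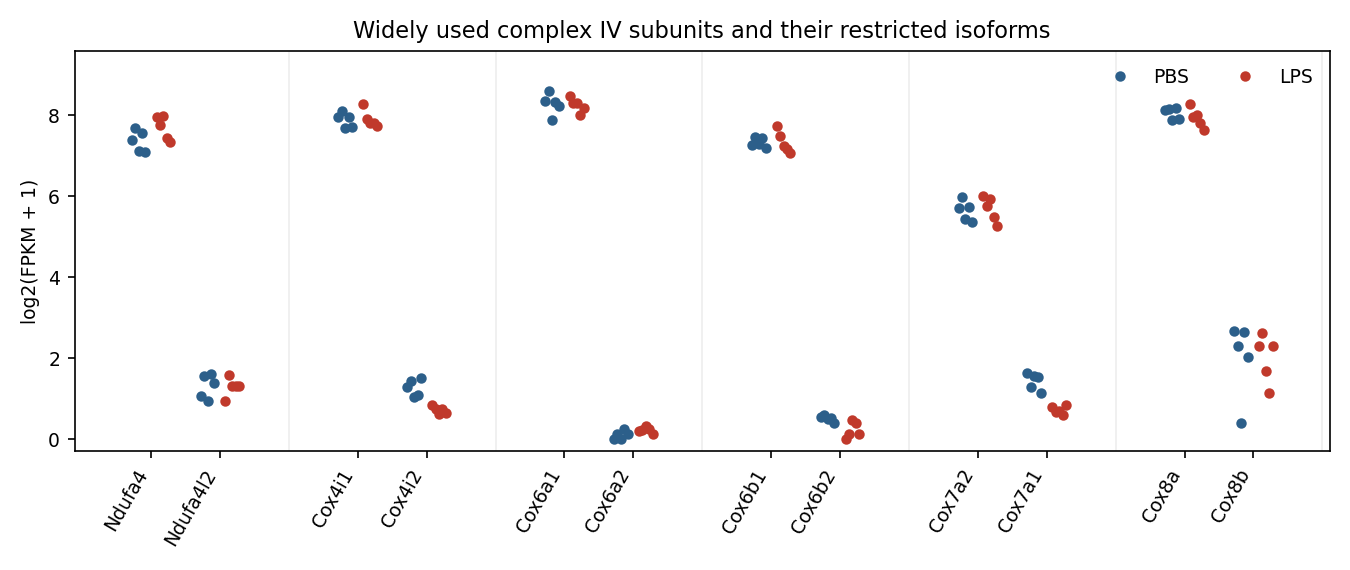
Level on the log2(FPKM + 1) scale (vertical axis) of 6 pairs of complex IV subunits, the widely used form first and the restricted isoform second (horizontal axis), in each PBS (blue) and LPS (red) library. The widely used forms lie between 37.3 and 389 FPKM and overlap between groups. Among the restricted isoforms, Cox4i2 and Cox7a1 are lower in all LPS libraries, which was fixed by the filter on low values. The other 4 overlap, and of these Cox6a2 and Cox6b2 did not pass that filter.

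Of the 14 assembly factors and relatives, 13 were tested, 1 rose and 0 fell, beside 2.63% and 0.605% of all tested genes. Sdhaf2, which attaches the flavin cofactor to the catalytic subunit of complex II, had 7.0, 8.10, 8.63, 7.43 and 7.95 FPKM in LPS and 5.70, 6.32, 5.92, 5.50 and 4.78 FPKM in PBS glands. All LPS libraries lay above all PBS libraries, as for 3.53% of all tested genes. The log2 change was 0.41 ± 0.09 (limma adjusted p = 0.0323), and the ratio of means was 1.39. Sdhaf2 (ENSMUSG00000024668) was also the 1 gene of the 110 listed in the authors' deposited table of significant genes, which gives a log2 fold change of 0.396 and an adjusted p of 0.00244 at chromosome 19, 10500513 to 10525209, minus strand. With FPKM rescaled to the sum outside the milk protein genes, the log2 change was 0.22 and the adjusted p was 0.193. The limma call was also lost when any 1 of LPS replicates 2 to 5 or PBS replicates 1, 4 and 5 was left out, with adjusted p from 0.0506 to 0.0932. The substrate of this factor, Sdha, averaged 43.9 FPKM over all libraries, and it was not called.

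Ndufaf5, an enzyme that modifies a core subunit of complex I during assembly, had the largest positive log2 change of all members. It had 4.64, 7.17, 7.61, 5.22 and 5.16 FPKM in LPS and 3.69, 4.10, 3.25, 4.45 and 4.37 FPKM in PBS glands, again without overlap. Its log2 change of 0.47 ± 0.13 did not pass (limma adjusted p = 0.0808); without LPS replicate 1 it did (0.0422). Sdhaf2 and Ndufaf5 were the 2 of 103 tested members whose LPS libraries all lay above the PBS libraries, beside 3.53% of all tested genes. Cox7a1 and Cox4i2 were the 2 whose LPS libraries all lay below (1.22% of all tested genes), a non-overlap that the filter had fixed. Ndufaf7, a methyltransferase for a core subunit of complex I, was the other factor with an unadjusted p below 0.05, at 6.37 ± 0.682 FPKM in LPS and 5.21 ± 0.770 FPKM in PBS glands (limma adjusted p = 0.265). The remaining factors had log2 changes from -0.03 (Ndufaf4) to 0.21 (Ndufaf6), and Sdhaf1 did not pass the filter. The complex IV relative Cox7a2l, a factor in joining complexes III and IV, was by far the most abundant of the class, at 105 ± 13.1 FPKM in LPS and 99.3 ± 11.7 FPKM in PBS glands.

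Genes of neighbouring pathways were counted in the same fit. Of 32 tested assembly factors outside the symbols above, 0 were called, and the same held for 14 genes of mitochondrial DNA copying and transcription, 8 nuclear regulators of respiratory genes, 14 genes of electron carriers, 18 genes of the citric acid cycle and pyruvate dehydrogenase, and 5 carriers and uncoupling proteins. These counts stand beside 3.23% of all tested genes called in either direction. Tfam, which packages and transcribes mitochondrial DNA, was at 6.44 ± 0.479 FPKM in LPS and 5.87 ± 0.713 FPKM in PBS glands (log2 change 0.12, limma adjusted p = 0.608). Ppargc1a, a coactivator of mitochondrial biogenesis, did not pass the filter, at 0.311 ± 0.148 and 0.433 ± 0.213 FPKM. Of 76 tested genes of the mitochondrial ribosome, which translates the 13 mitochondrial messages, only Mrpl35 was called, from 3.53 ± 0.429 FPKM in PBS to 5.13 ± 0.560 FPKM in LPS glands (log2 change 0.44, limma adjusted p = 0.0374). It was called in 13 of the 23 fits that tested it. The median log2 change of this list was 0.12, and that of 17 glycolysis genes, 0 of which were called, was 0.25, beside 0.05 for all tested genes.

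A last list held 5 genes known to act on respiration or its by-products in inflammation, and 2 of them rose, beside 2.63% of all tested genes. Acod1, which makes itaconate, an inhibitor of succinate dehydrogenase, had 2.14, 14.2, 6.68, 3.34 and 7.85 FPKM in LPS and 1.05, 1.83, 0.541, 0.872 and 1.02 FPKM in PBS glands (log2 change 1.74 ± 0.35, limma adjusted p = 0.0193). Nos2, which makes nitric oxide, an inhibitor of cytochrome c oxidase, had 3.00, 10.2, 14.9, 2.62 and 16.7 FPKM in LPS and 0.607, 1.00, 1.34, 0.895 and 1.61 FPKM in PBS glands (log2 change 2.05 ± 0.41, limma adjusted p = 0.0195). For both genes the groups did not overlap, and LPS replicates 1 and 4 were the lowest of the LPS libraries for both genes. AA467197, the mouse gene for a small protein (NMES1) related to Ndufa4, had 0.870, 3.76, 2.85, 1.27 and 2.98 FPKM in LPS and 1.68, 1.20, 1.94, 0.642 and 0.631 FPKM in PBS glands. These groups overlapped (log2 change 0.55 ± 0.26, limma adjusted p = 0.332). The remaining 2, Hif1a and Sod2, had log2 changes of 0.09 and 0.17 and were not called. Both calls were lost without a filter and when PBS replicate 1 or 4 was left out, and that of Nos2 also without LPS replicate 2 (limma adjusted p from 0.0516 to 0.0751 for Acod1 and from 0.0553 to 0.0753 for Nos2). Acod1 and Nos2 are made by myeloid cells, among them neutrophils and macrophages. Beside the higher neutrophil markers, summed FPKM of 8 macrophage markers was 75.2 to 178 in LPS and 97.4 to 368 in PBS glands, with none at 0 in all libraries. Of 7 tested macrophage markers 0 were called, and 6 had a log2 change below 0 (median -0.44). The part of either cell type in these values was not tested.

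The promoters of the structural subunits were searched for motifs of factors known to control respiratory genes, in windows from 250 bases before to 50 bases after the start (RefSeq, GRCm38.p6), on both strands. A window was found for 63 of the 75 genes. The NRF1 motif GCGCATG was present in 13 of them (20.6%), against 4.41% of all 27025 genes with a window. The ETS motif CCGGAAG, which GABPA binds, was present in 16 (25.4%, against 9.93%), and the YY1 motif ATGGCGG in 10 (15.9%, against 4.69%). The first and the last of these motifs can overlap through the letters ATG. The 27025 genes were not matched to the subunits in expression, gene type or base composition, so these shares do not set the subunits apart from other expressed genes. A match describes these letters only, and the genes of the 3 factors were among the 8 tested regulators that gave no call.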

How the data were processed

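RNA-seq of 10 mouse mammary glands was analysed, 5 per group. The tools named per the submitters' processing notes are STAR 2.5, HTSeq 0.6.1 and DESeq2 with its version written 2, and the build is mm10; settings, annotation release and strandedness are not given in the sources used here. Per the file headers, 1 deposited table gives FPKM for every gene, and a deposited table of 908 genes holds raw counts, normalized values (a signal scaled per library by the authors), log2 fold changes and p-values (raw and adjusted). The reported test used FPKM, because the counts cover those 908 genes alone.

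The 11414 genes that reached an FPKM of 1 in 5 or more of the 10 libraries entered the fit of limma 3.58.1 (R 4.3.3; two-sided moderated test, variance trend on intensity, group as the only term) on log2(FPKM + 1), a pseudocount of 1. Calls are Benjamini-Hochberg adjusted p below 0.05 over all tested genes, and list counts carry no test of their own. Whole reads were recovered from the FPKM of 23059 of 23059 genes above 0 (tolerance 0.002 reads). On the reads of the same 11414 tested genes, edgeR 4.0.16 called 305 genes higher and 132 lower. DESeq2 1.42.0 called 546 and 299, beside 300 and 69 with limma. Recovered gene lengths equalled the listed ones for 906 of 908 genes. Reads carry no molecular identifiers that would mark PCR duplicates, so depth bounds only counting error. Sequences and coordinates are those of GENCODE M21 (GRCm38, the same build as mm10), except where the authors' table is named; copies were aligned with blastn 2.17.0. The fitting procedure was tested on simulated data.

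The members and lists were chosen with earlier results of these data known. Named genes were the called members, the 2 most abundant structural subunits of each complex, the 3 nuclear members of largest rise and of largest fall in log2 change, all mitochondrial genes, Cox5a, the paralogue pairs of complex IV, the subunit c genes and, outside the members, called list genes with AA467197, Acod1, Ppargc1a and Tfam. Other genes (such as Ndufa9, Ndufaf7, Ndufs1, Ndufb2, Sdha and Cox7a2l) were named after their values were seen. Alternatives were other pseudocounts, filters, scalings and variance options, a replicate block, each library left out, edgeR and DESeq2.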

Additional observations from a re-analysis of the deposited data

Results flagged for a closer look

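In each group of 5 libraries, a value was marked when the gap between the highest or lowest library and its neighbour took up more of the range than expected in 1 of 20 groups by chance. Of 82 sets of values, 9 were marked. Of these, 5 concern PBS replicate 2 and mitochondrial genes. mt-Nd2 was at 1559 FPKM there and at 1031 to 1128 in the other PBS libraries. mt-Nd4 was at 1081 FPKM against 621 to 751, mt-Nd5 at 910.1 against 564 to 636, and mt-Nd6 at 682 against 395 to 442. The sum of the mitochondrial genes in that library was 16709 FPKM, against 10452 to 12112. These genes share a genome and a library, so the marks are not independent.

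In LPS replicate 1, Cox4i1 was at 310.1 FPKM against 212 to 240.3 in the other LPS libraries, and Uqcrh was at 123 FPKM against 70.5 to 85.6. In LPS replicate 3, mt-Co2 was at 68.9 FPKM against 43.6 to 49.7. mt-Atp8 was at 0.306 FPKM, which is 1 read, in PBS replicate 5 and at 0 in the other PBS libraries.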

How the results depend on the processing

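Over 23 alternatives, 896 of 935 values of named genes kept their side of the threshold, 37 lost a call, 2 gained one and 0 reversed a call. The sign turned in 137 values that were not called either way. Leaving out 1 library gave 121 to 429 genes called higher and 27 to 88 lower overall. Among the oxidative phosphorylation genes it gave 0 to 2 higher and 1 to 2 lower, a median log2 change of -0.03 to 0.10 for nuclear structural and of -0.03 to 0.16 for mitochondrial genes. The counts among members were the reported ones only without PBS replicate 3.

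Without a filter, 101 genes were called higher and 25 lower, with 0 and 1 members. With a mean FPKM of at least 5, 0 members were called lower, since Cox7a1 and Cox4i2 are then not tested. Quantile normalization gave 145 genes lower. Rescaling outside milk proteins gave 128 higher and 348 lower, 0 members higher and a nuclear median of -0.18. Rescaling outside mitochondrial genes gave 0 members higher. Library weights gave 534 and 122 genes, with 2 members higher. edgeR gave 132 lower, and DESeq2 gave 546 and 299, with 1 member lower. Beyond these, the cause of the shifts was not tested. Over the alternatives, the adjusted p ran from 0.00362 to 0.0718 for Cox7a1, from 0.0170 to 0.0821 for Cox4i2 and from 0.00195 to 0.193 for Sdhaf2.

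With a replicate block, 962 genes were called higher and 267 lower, and the members called were the 3 of the reported fit. The labels do not say that a number marks a mouse. The correlations between same-numbered libraries' deviations were 0.482, 0.362, 0.0993, 0.103 and 0.494, 1 of them not above 0.1, so the numbers were not taken as pairs, and 3 of 5 LPS libraries correlated best with their own number. Few reads limit Cox7a1, Cox4i2, mt-Nd3 and mt-Atp8.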
